A study of Mus musculus with 30 samples.

Results

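The genes described here burn fatty acids in the liver, turn them into ketone bodies, or are known targets of the nuclear receptor PPARA. They were taken by symbol from a list of 37, of which 36 were in the deposited tables and Etfb was not analysed here. The tables list 14259 genes at postnatal day (PND) 1 and PND21 and 13091 at PND42. The 36 genes comprise 11 of mitochondrial beta-oxidation, 3 of the carnitine shuttle, 2 of electron transfer, 6 of peroxisomes, 4 Cyp4a hydroxylases, 2 of ketone metabolism, 4 acyl-CoA thioesterases, and the receptor with 3 further targets. All 36 passed the filter on low values in every comparison.

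Liver RNA came from CD-1 mice, an outbred stock, exposed to cadmium chloride at 500 ppb during gestation, as the series title has it, or unexposed. There were 4 exposed and 4 control females at PND1, 3 exposed and 3 control females at PND21, 4 exposed and 4 control females at PND42, and 4 exposed and 4 control males at PND42, 30 libraries in all. The labels do not say which pups were litter mates. Within a group the leading part of each animal's tag differs, but some recur between ages and between the sexes, and the labels do not say what they stand for; these animals were treated as unrelated. The p values therefore measure the spread between these samples, which may be smaller than that between litters. Levels are normalised read counts. Each difference is a log2 fold change with its SE, exposed over control unless another pair is named, on the log2(normalised count + 1) scale. A gene is said to rise or fall only where limma's p, adjusted across the whole table, was under 0.05. Beside the main counts of members in each comparison stands the share of all tested genes that met the same criterion.

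Long-chain fatty acids enter the mitochondrion as carnitine esters, made by the Cpt enzymes and carried by Slc25a20, and are then shortened in rounds of dehydrogenation, hydration, a second dehydrogenation and thiolysis. Electrons from the first step reach the respiratory chain through the electron transfer flavoprotein (Etfa, Etfb) and its dehydrogenase Etfdh, and much of the acetyl-CoA formed in liver leaves as ketone bodies. Peroxisomes shorten very long chains, and Cyp4a enzymes hydroxylate the far end of the chain. PPARA, switched on by fatty acids in fasting and suckling, raises many of these genes in mouse liver, Cyp4a10, Cyp4a14 and Pdk4 among the most responsive.

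Some stretches of sequence of genes named in the results are shown. The first set compares the same stretch of coding sequence, bases 190 to 279, in 3 neighbouring Cyp4a genes of chromosome 4 whose counts moved apart. It was picked as the stretch of 90 bases in which Cyp4a31 and Cyp4a32 differ most. Capitals mark the 13 positions at which the 3 genes are not all alike, 10 of which separate Cyp4a31 from Cyp4a32. On the GRCm38 build the cluster runs from Cyp4a14 (chr4:115486200-115496142, minus strand) through Cyp4a10 (chr4:115518264-115533649) and Cyp4a31 (chr4:115563649-115579015) to Cyp4a32 (chr4:115600969-115621602), the last 3 on the plus strand. The coding sequences are from the GENCODE vM21 transcripts.
Cyp4a10: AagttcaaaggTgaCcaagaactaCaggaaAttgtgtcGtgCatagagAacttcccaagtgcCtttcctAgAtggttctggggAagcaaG
Cyp4a31: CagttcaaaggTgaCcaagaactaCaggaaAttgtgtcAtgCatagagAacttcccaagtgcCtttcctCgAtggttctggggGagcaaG
Cyp4a32: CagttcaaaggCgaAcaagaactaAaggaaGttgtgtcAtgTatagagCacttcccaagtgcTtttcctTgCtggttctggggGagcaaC

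Over the whole coding sequence Cyp4a31 and Cyp4a32 were identical at 96.0% of positions, Cyp4a10 and Cyp4a32 at 97.2%, and Cyp4a10 and Cyp4a31 at 96.6%, while Cyp4a10 and Cyp4a14 were at 75.1%. Of all windows of 125 bases, the read length, in their exons, 11.8% in Cyp4a32, 7.60% in Cyp4a10, 4.58% in Cyp4a31 and 0% in Cyp4a14 occur letter for letter in another gene. Reads from such windows cannot be assigned to 1 gene, and single mismatches could move others, so that counts of Cyp4a10, Cyp4a31 and Cyp4a32 are uncertain to that extent. Other members with shared windows are Acaa1b (20.2%) and Acaa1a (7.24%), Acot3 (14.3%), Acot2 (13.7%), Acot1 (9.48%) and Acot4 (7.58%), Hadhb (13.3%), Acadvl (12.8%), Bdh1 (7.12%), Eci2 (3.33%), Etfdh (2.03%) and Slc25a20 (1.84%).

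The second set shows RefSeq promoter windows (250 bases before to 50 after the start, build GRCm38.p6) of Cpt1a, the entry step, and Acadm, the medium-chain dehydrogenase, both of which fell in PND42 females and hold the hexamer AGGTCA that nuclear receptors bind, here on the reverse strand and in capitals as TGACCT.
Cpt1a, chr19:3323051-3323350, plus strand: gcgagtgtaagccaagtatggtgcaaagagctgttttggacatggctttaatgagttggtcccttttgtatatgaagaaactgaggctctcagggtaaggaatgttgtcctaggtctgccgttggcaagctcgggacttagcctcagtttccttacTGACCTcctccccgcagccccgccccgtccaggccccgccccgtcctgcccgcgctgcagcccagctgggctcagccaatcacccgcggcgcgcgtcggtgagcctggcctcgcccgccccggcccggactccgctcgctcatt
Acadm, chr3:153944594-153944893, minus strand: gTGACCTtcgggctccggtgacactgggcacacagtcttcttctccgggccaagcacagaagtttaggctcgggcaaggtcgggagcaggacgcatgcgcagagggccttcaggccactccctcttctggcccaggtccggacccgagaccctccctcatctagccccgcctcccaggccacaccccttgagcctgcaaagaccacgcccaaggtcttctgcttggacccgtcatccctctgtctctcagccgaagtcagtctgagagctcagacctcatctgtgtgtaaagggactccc

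The third is the window of Hadhb, which with Hadha encodes the mitochondrial trifunctional protein. The 2 genes run in opposite directions from starts on chromosome 5 at 30154980 for Hadha and 30155253 for Hadhb, with 272 bases between them, and their windows overlap by 228 bases. No letter is in capitals, since the window holds no AGGTCA on either strand.
Hadhb, chr5:30155003-30155302, plus strand: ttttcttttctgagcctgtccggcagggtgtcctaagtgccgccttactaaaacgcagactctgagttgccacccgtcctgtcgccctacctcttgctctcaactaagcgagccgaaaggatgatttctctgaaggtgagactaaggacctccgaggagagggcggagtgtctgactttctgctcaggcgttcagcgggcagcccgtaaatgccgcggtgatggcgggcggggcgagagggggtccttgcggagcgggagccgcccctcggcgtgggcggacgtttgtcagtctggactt

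Windows were on hand for 28 members, 31 in all. AGGTCA, searched on both strands, was in 6 of the 31 windows (19.4%), which belong to Acadm, Acadvl, Acot3, Acot4 and Cpt1a, against 16.3% of all 32851 windows. The direct repeat with 1 base between, AGGTCANAGGTCA, was in 0 of 31 against 0.0396% of all, and the looser AGGNCANAGGNCA in 0 of 31 against 0.381%. No match says only that these letters are not in these windows, and a link between the hexamer and the changes was not tested.

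The libraries held 22.0 to 40.1 M reads over the listed genes. All 7 hepatocyte markers were listed in every table, with Alb among them, while none of the 4 muscle markers and only 1 of the 4 adipocyte markers were. Depth and 3 measures of the RNA were compared by two-sided exact permutation tests over libraries, 16 tests in all. At PND42 in females the 3 RNA measures did not overlap between groups: reads from mitochondrially encoded genes were 22.2 to 35.5% in exposed and 5.25 to 12.8% in control females, the mean log2 level of Malat1 and Neat1, which stay in the nucleus, was 15.5 to 15.9 in exposed and 13.0 to 14.5 in control females, and that of genes with over 300 kb of intron was 8.76 to 9.12 in exposed and 7.24 to 7.66 in control females. Each reached p = 0.0286 in the exact permutation test, a value that 4 libraries against 4 cannot go below, or 0.152 once adjusted over the 16 tests. In the other comparisons these 3 measures overlapped, and depth was higher in every exposed than in every control library at PND21 (p = 0.1 in the exact permutation test, which 3 libraries against 3 cannot go below).

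Per kilobase of exon, Acaa2, the mitochondrial thiolase, had the highest mean of the 36 in 7 of 8 groups. The exon length joins all annotated transcripts of a gene, such as 1516 bases in Acaa2 and 8730 in Hadha. The order between genes is therefore approximate. In PND42 control females it stood at 15371 ± 1374 normalised counts per kb (SD, n = 4), with Acaa1b, a peroxisomal thiolase, next at 9095 ± 1006 and Etfa at 7081 ± 1054. In PND42 exposed females Acaa1b came first at 12152 ± 2259 per kb and Acaa2 second at 4069 ± 327, close to Etfa at 3948 ± 462, a gap within their spread. Pdk4, the kinase that shuts off pyruvate oxidation, was the lowest in both of these groups, at 14.8 per kb in exposed and 22.1 per kb in control females.

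**Figure D1:**
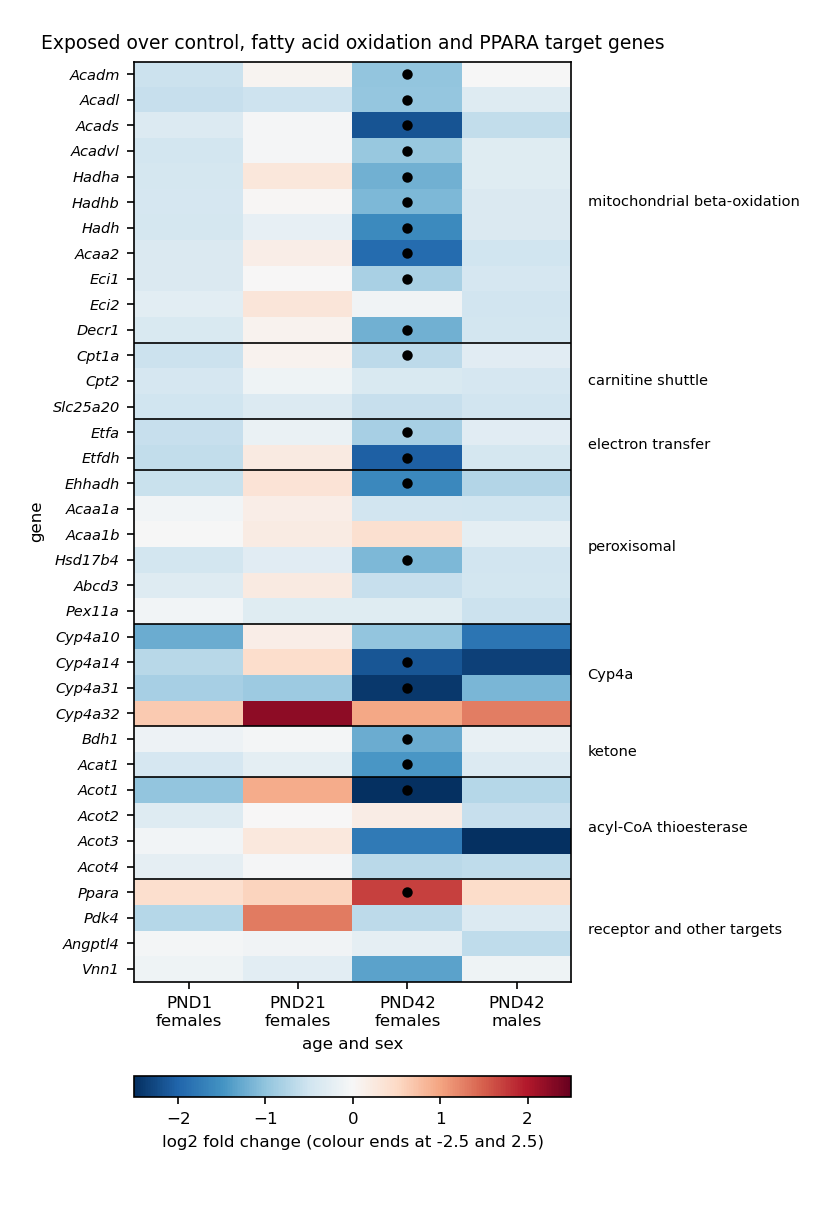
Log2 fold change of exposed over control (colour) for 36 genes (rows, grouped by role) at PND1, PND21 and PND42 in females and at PND42 in males (columns); black dots mark an adjusted p under 0.05. All 21 dots are in PND42 females, 20 on lower genes and 1 on Ppara.

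In newborn females the oxidation genes had lower mean levels in exposed livers, but none passed the test. Of the 36 members 34 had a negative log2 fold change, against 50.8% of all 14059 genes tested, and their median was -0.42 against -0.01 over all genes. At an adjusted p under 0.05 limma called 0 members, as it called 0% of all genes, the smallest adjusted p being 0.223. At an unadjusted p under 0.05, 21 members were lower and 0 higher, against 8.36% of all genes lower and 6.14% higher. The count of lower members was 13 without control 4 or exposed 1 and 14 without exposed 2, beside 664, 809 and 858 genes over all. The median was -0.28 without control 4.

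Every exposed library lay below every control library in 12 members, against 4.82% of all genes, and above in 0, against 2.94%. Among the 12, Cyp4a31 had 1156, 1134, 1137 and 1062 normalised counts in exposed females and 1925, 2037, 2312 and 1761 in control females. The exposed values lay within a narrow band well below the lowest control, with a log2 fold change of -0.83 ± 0.11 (limma adjusted p = 0.223). Etfa, the flavoprotein subunit that takes electrons from the acyl-CoA dehydrogenases, had 5055, 6048, 6041 and 5647 counts in exposed and 7941, 7086, 9247 and 9706 in control females (-0.57 ± 0.14). Acadm, which acts on medium chains, had 3988, 4698, 5590 and 4163 counts in exposed and 6549, 6577, 5930 and 7559 in control females (-0.54 ± 0.14). In both genes the groups did not overlap, by a small margin in Acadm. Cyp4a10 had the lowest fold change of the members, with 2707, 2660, 3669 and 1545 counts in exposed and 9908, 4452, 3946 and 7502 in control females (-1.25 ± 0.33). Its controls spread over more than its exposed libraries, and the closest pair of values, 3669 and 3946, nearly met.

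By role, all 11 mitochondrial beta-oxidation genes had negative values (median -0.42, from -0.58 to -0.27), as had all 3 carnitine shuttle genes (median -0.49) and both electron transfer genes (-0.62 for Etfdh and -0.57 for Etfa). The 6 peroxisomal genes had a median of -0.19, from -0.56 for Ehhadh, the bifunctional enzyme, to near 0 for Acaa1b; the classes were not tested against each other. Bdh1, which makes the ketone body beta-hydroxybutyrate, differed little (-0.13 ± 0.18), while Acat1, the acetoacetyl-CoA thiolase, was at -0.43 ± 0.16. Ppara itself had a higher mean, 9018 ± 2333 counts in exposed and 6977 ± 2643 in control females (SD, n = 4 each), with overlapping values (0.43 ± 0.30).

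Of 82 tested other genes of the pathway, 68 had negative values (median -0.31) and 0 passed. The lowest p among them were of Mut, the methylmalonyl-CoA mutase (-0.76 ± 0.17), Phyh, which starts the oxidation of phytanic acid (-0.58 ± 0.14), and Echs1, the mitochondrial hydratase (-0.57 ± 0.16). In the authors' deposited table, Etfa was the only member with an adjusted p under 0.05 at PND1 (0.0248), followed by Cyp4a31 at 0.0614, Cyp4a10 at 0.0677 and Slc25a20 at 0.0755. The 7 hepatocyte markers, summed, were 1029460 to 1458180 counts in exposed and 1172900 to 2049050 in control females, and the 5 endothelial markers 8606 to 9744 in exposed and 6756 to 7680 in control females, without overlap, though 2 of the 5 had negative log2 fold changes and their median was 0.04. All 9 listed erythroid markers had positive values (median 0.42), and none passed. The part of these cell types in the differences was not tested. In bulk liver, fewer cells of a type and less RNA per cell cannot be told apart.

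At weaning age, PND21, the members did not move together in females. The median log2 fold change was 0.05, 15 of 36 were negative against 51.1% of all 13886 genes, and with libraries left out in turn 9 to 26 were: 26 without exposed 3, 23 without control 1, 9 without control 3 or exposed 2, and 10 without exposed 1. The share of all genes with negative values was then 50.1 to 51.7%, and the median of the members ranged from -0.11 to 0.19. Limma called 0 members, against 0.036% of all genes; 1 member was lower and 2 were higher at an unadjusted p under 0.05, against 4.48% and 5.09% of all genes. The summed hepatocyte markers were 1575350 to 2491050 counts in exposed and 2183910 to 4660430 in control females at this age, overlapping. All 7 had negative values (median -0.59), while all 4 B cell markers had positive values (median 0.71). Negative values were held by 1 of 5 cholangiocyte markers (median 0.69) and 2 of 6 stellate and fibroblast markers (median 0.60). No marker of these lists passed, and the part of these cell types in the members' values was not tested. In 0 members did every exposed library lie below every control, against 8.62% of all genes, and in 2 members, Cyp4a32 and Pdk4, every exposed library lay above, against 7.99%.

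Pdk4 had 227, 194 and 664 normalised counts in exposed and 86.1, 125 and 177 in control females at PND21. All exposed values were above the controls, the third far above the others, and the log2 fold change was 1.31 ± 0.48 (limma adjusted p = 0.478). Cyp4a32 had 2106, 590 and 4399 counts in exposed and 388, 272 and 482 in control females (2.25 ± 0.71, limma adjusted p = 0.462), whereas Cyp4a31 had 946, 776 and 1508 in exposed and 1272, 1882 and 3120 in control females (-0.92 ± 0.36). Cyp4a31 overlapped between the groups by 1 exposed library. In the authors' deposited table Cyp4a31 and Pdk4 had adjusted p values of 0.0382 and 0.0431 at PND21. The exposure effect was compared between the ages in 1 model: it was higher at PND21 than at PND1 by a median of 0.35 over the members, with 4 of 36 negative against 50.2% of all genes, and 0 members passed, against 0.014% of all genes. At an unadjusted p under 0.05, 6 were higher and 0 lower, against 5.32% and 3.76% of all genes. With libraries left out in turn 2 to 11 were higher, 2 without PND21 control 1 or exposed 3, 3 without PND1 control 4 or exposed 1 or 2, 10 without PND1 exposed 3 and 11 without PND21 exposed 2. Over all genes 649 were higher without PND21 control 1, 563 without PND21 exposed 3, 690 without PND1 exposed 3 and 924 without PND21 exposed 2. The median of the members was 0.16 without PND21 exposed 3.

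**Figure D2:**
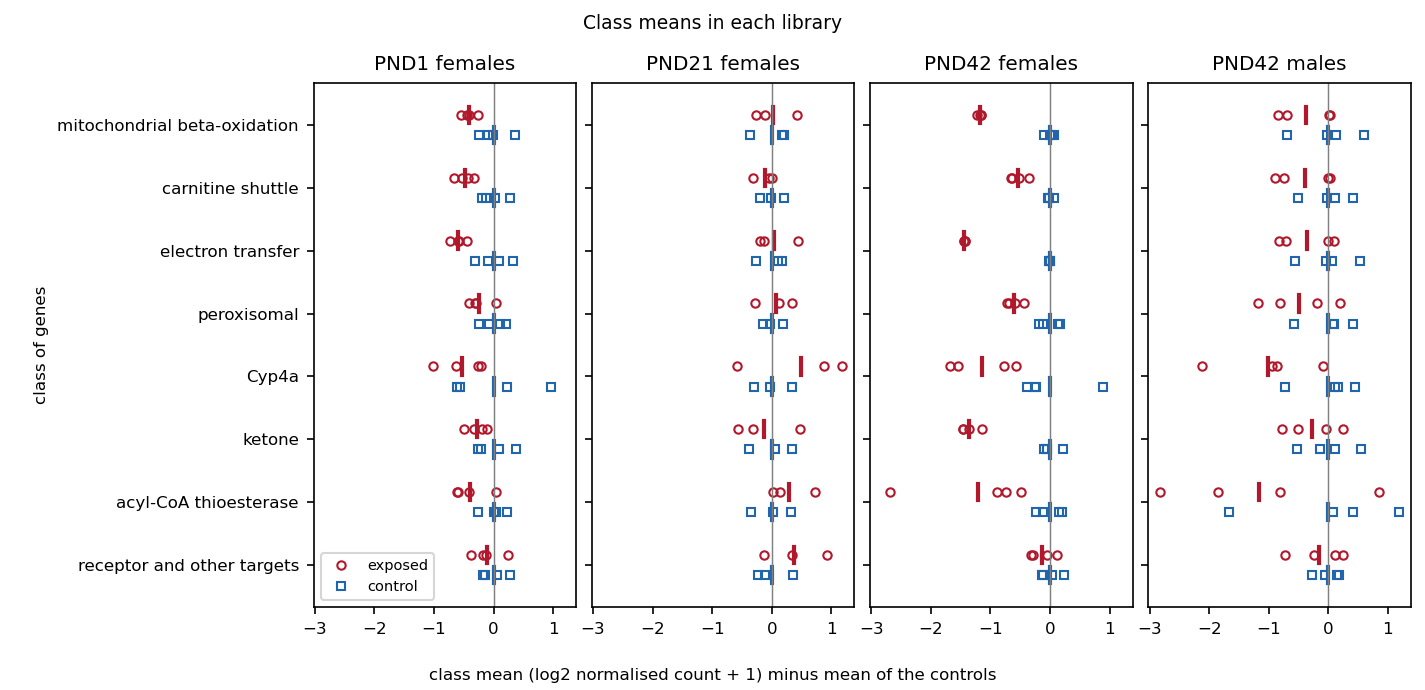
Mean log2(normalised count + 1) over the genes of each class (rows) in each library, less the mean of the controls of the same age and sex (x axis), for exposed (red circles, above) and control libraries (blue squares, below); thick ticks are group means. In PND42 females the exposed libraries lie below the controls without overlap in 7 classes, all but the receptor and other targets, while in PND42 males the groups overlap in every class. At PND1 the exposed libraries also lie below, by small margins, in mitochondrial beta-oxidation, the carnitine shuttle and electron transfer.

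In young adult females, at PND42, most of mitochondrial fatty acid oxidation fell after exposure. Limma called 20 members lower and 1 higher, against 21.4% of all 13091 genes lower and 18.9% higher, or 40.2% in either direction. Negative values were found in 32 of 36 members, against 49.9% of all genes, and the median over the members was -0.98. Every exposed library lay below every control library in 22 members, against 23.5% of all genes, and above in 2, Acaa1b and Ppara, against 22.3%.

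The 3 RNA measures given above also separated these groups. With the percent of mitochondrial reads as a covariate, the only one of them fitted so, an alternative chosen after seeing the data, 0 members passed, their median was -0.23, and over all genes 41 were called lower and 32 higher. The slope on that covariate was taken from the spread within all PND42 groups, males among them. The female groups do not overlap in it, so exposure and the percent of mitochondrial reads cannot be told apart among these females. The summed hepatocyte markers were also lower, at 1226490 to 2260990 counts in exposed and 2843460 to 3916260 in control females, and 5 of the 7 fell. So were the sums of the 5 listed cholangiocyte markers, at 358 to 656 in exposed and 1035 to 2091 in control females, and of the 6 stellate and fibroblast markers, at 8752 to 10507 in exposed and 11311 to 14188 in control females. Of the cholangiocyte markers 4 had negative values and 2 fell, and of the stellate and fibroblast markers 5 had negative values and 2 fell. All 4 Kupffer cell markers had negative values, 2 of which passed (median -0.81), and the 1 listed exocrine pancreas marker fell, at 519 to 677 in exposed and 1070 to 1676 in control females. Other lists were mixed: of 5 endothelial markers 1 fell and 1 rose, and 1 of 4 B cell markers had a negative value (median 0.58). Of the 5 listed erythroid markers 3 had negative values, and no B cell or erythroid marker passed. The part of these cell types in the result was not tested.

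Among the mitochondrial beta-oxidation genes, 10 of 11 fell (median -1.12). Acads (ENSMUSG00000029545, chr5:115110299-115119346, minus strand), the short-chain dehydrogenase, had 719, 719, 601 and 788 normalised counts in exposed and 2587, 3995, 3017 and 3130 in control females. The highest exposed library thus stayed far below the lowest control, and the fall was -2.16 ± 0.34 (limma adjusted p = 0.000179). Acaa2, the last step of each round, had 6291, 5900, 5678 and 6807 counts in exposed and 21708, 25950, 23982 and 21570 in control females (-1.92 ± 0.34, limma adjusted p = 0.000335). Hadh, the dehydrogenase for short and medium hydroxyacyl-CoA, had 3630, 2908, 2610 and 3331 in exposed and 8248, 10665, 8456 and 10162 in control females (-1.59 ± 0.27, limma adjusted p = 0.00027). In all 3 the exposed libraries formed a tight group apart from the controls.

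The other dehydrogenases fell by less: Acadm by 0.99, Acadl by 0.97 and Acadvl by 0.95 on the log2 scale, for medium, long and very long chains. Hadha and Hadhb, the divergent pair shown above, fell to 2840 ± 337 and 1387 ± 185 counts in exposed females, against 6602 ± 1518 and 3019 ± 368 in control females (SD, n = 4 each), changes of -1.20 ± 0.24 and -1.12 ± 0.22. Decr1 and Eci1, which handle unsaturated chains, fell by 1.21 and 0.81. Eci2, an isomerase found in both mitochondria and peroxisomes, was the exception, with 4267, 5520, 7792 and 4439 counts in exposed and 5091, 5307, 5866 and 6549 in control females (-0.09 ± 0.25, limma adjusted p = 0.813).

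In the carnitine shuttle Cpt1a fell, with 6267, 4668, 5893 and 4296 counts in exposed and 7148, 9175, 8013 and 8810 in control females (-0.66 ± 0.24, limma adjusted p = 0.0349). The groups did not overlap, but the call was lost when any of 5 libraries was left out (adjusted p up to 0.0989), namely exposed 2 and 4 and controls 3, 4 and the unnumbered one. Cpt2, on the inner membrane, and Slc25a20, the carrier, were also lower in every exposed library without passing (-0.39 ± 0.24 and -0.57 ± 0.25). Eci1 lost its call without control 4 or exposed 4 (adjusted p up to 0.0514).

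Both electron transfer genes fell. Etfdh (ENSMUSG00000027809, chr3:79603788-79629500, minus strand), which passes electrons on to ubiquinone, had 1079, 1275, 1377 and 1177 counts in exposed and 4470, 5893, 4341 and 5586 in control females. No exposed library came near a control, and at -2.04 ± 0.29 it had the lowest p of the members (limma adjusted p = 7.38e-05). Etfa had 8255, 6849, 6308 and 7569 in exposed and 14565, 10972, 14730 and 11707 in control females (-0.84 ± 0.21, limma adjusted p = 0.00384).

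Both ketone genes fell as well. Acat1 had 4376, 4362, 4567 and 6334 counts in exposed and 11848, 12974, 14922 and 13876 in control females (-1.46 ± 0.25), and Bdh1 had 3969, 4003, 4352 and 4278 in exposed and 10197, 8778, 11781 and 8756 in control females (-1.24 ± 0.24). The exposed group was less than the lowest control by a wide gap in each.

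The peroxisomal genes were divided. Ehhadh fell, with 1938, 2046, 1893 and 2424 counts in exposed and 4931, 9227, 5783 and 5888 in control females (-1.60 ± 0.35, limma adjusted p = 0.00188), and so did Hsd17b4, the other bifunctional enzyme, with 4494, 4362, 4434 and 4487 in exposed and 8984, 10581, 9006 and 9994 in control females (-1.11 ± 0.24). Neither overlapped between the groups. The remaining 4 did not pass: Acaa1a was at -0.48 ± 0.24, the transporter Abcd3 at -0.58 ± 0.28 and Pex11a, which helps peroxisomes divide, at -0.30 ± 0.21. Acaa1b had 21911, 22320, 30414 and 20728 counts in exposed and 15208, 19673, 18981 and 17516 in control females (0.41 ± 0.40), every exposed library being above every control.

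Among the Cyp4a genes, Cyp4a14 and Cyp4a31 fell. Cyp4a31 had 196, 56.7, 156.1 and 18.9 counts in exposed and 543, 296, 242 and 717 in control females (-2.41 ± 0.61, limma adjusted p = 0.00532), and Cyp4a14 had 1074, 331, 1670 and 405 in exposed and 2474, 3109, 1743 and 6908 in control females (-2.15 ± 0.72, limma adjusted p = 0.0281). Exposed libraries were below controls in both, narrowly in Cyp4a14, whose call was lost without exposed 2 or 4, control 3 or the unnumbered control (adjusted p up to 0.0847). Cyp4a10 had 4842, 1381, 3429 and 2004 in exposed and 4496, 4669, 2848 and 12020 in control females and did not pass (-0.99 ± 0.57).

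Of the thioesterases, which free fatty acids from CoA, Acot1 in the cytosol fell, with 83.3, 86.2, 37.4 and 180 counts in exposed and 349, 524, 429 and 716 in control females (-2.53 ± 0.74, limma adjusted p = 0.0142). Acot2, its mitochondrial near copy at 85.5% identity of coding sequence, had 153.8, 107, 114 and 144 in exposed and 139, 72.5, 155.2 and 104 in control females (0.18 ± 0.34), with the groups mixed. Acot3 and Acot4, of peroxisomes, had 61.1 and 417 counts in exposed female 3, against at least 828 and 1543 in the other exposed females, and did not pass (-1.77 ± 1.64 and -0.68 ± 0.51).

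The receptor gene went the other way. Ppara (ENSMUSG00000022383, chr15:85734983-85802819, plus strand) had 10258, 9703, 7967 and 5248 counts in exposed and 3014, 2826, 2103 and 2034 in control females, so that the lowest exposed library was above the highest control, and it rose by 1.71 ± 0.29 (limma adjusted p = 0.000267). Its 3 further targets did not pass: Vnn1, a pantetheinase, was at -1.34 ± 0.62, Pdk4 at -0.66 ± 0.42, and Angptl4, a secreted inhibitor of lipoprotein lipase, at -0.23 ± 0.30.

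Beyond the members, 23 of 82 tested genes of the pathway fell and 4 rose in PND42 females (median -0.42), where 21.4% of all genes fell and 18.9% rose. Those of lowest p included Hsdl2, a peroxisomal dehydrogenase-like protein (-1.75 ± 0.22), Acsl5, an acyl-CoA synthetase (-1.54 ± 0.26), Pecr, a peroxisomal enoyl-CoA reductase (-1.51 ± 0.26), Echs1 (-1.72 ± 0.30) and Mut (-1.39 ± 0.24). Of the 4 that rose, Ppargc1b, a coactivator, changed by 1.63 ± 0.43 and Ppard, a related receptor, by 0.65 ± 0.21. Both were named after their values were seen.

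**Figure D3:**
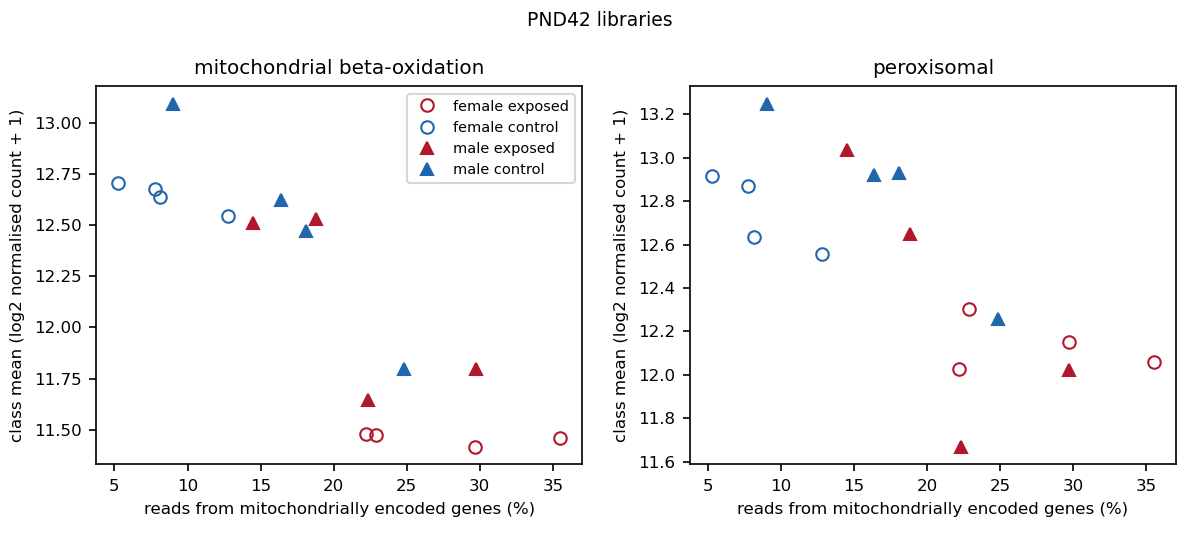
Class mean of log2(normalised count + 1) for mitochondrial beta-oxidation (left) and peroxisomal genes (right) against the percent of reads from mitochondrially encoded genes in each PND42 library (red exposed, blue control; open circles females, filled triangles males). Libraries over 22% of such reads have the lower class means in both sexes, among them the 4 exposed females, 2 exposed males and 1 control male.

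In males of the same age the members had lower means without passing the test. Of 36 members 34 were negative, against 52.9% of all genes, with a median of -0.45 against -0.03 over all genes, and limma called 0 members and 0% of all genes (smallest adjusted p 0.622). At an unadjusted p under 0.05, 4 members were lower, against 3.39% of all genes, and 0 higher, against 3.73%. Without the unnumbered control male of 24.8% mitochondrial reads, 23 members and 1831 of all 13091 genes were lower at that threshold. The median of the members was then -0.66, and 13 genes were called lower and 14 higher over all, none of them members. Without exposed male 3, 12 members and 894 genes over all were lower, and without exposed male 4, 16 members and 731 genes. Without control male 1, exposed male 1 or a further unnumbered control, 2 members were lower, beside 296, 332 and 299 genes over all. The median was -0.25 without the control male of 9.03% mitochondrial reads and -0.27 without exposed male 1. Every exposed male lay below every control male in 2 members, Cyp4a10 and Cyp4a31, against 0.833% of all genes, and above in 0, against 0.894%. The summed B cell markers were 174 to 223 counts in exposed and 20.7 to 137 in control males, without overlap; their part was not tested.

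Cyp4a10 had 78.3, 257, 340 and 582 counts in exposed and 883, 620, 1099 and 1073 in control males (-1.83 ± 0.57). Cyp4a14 had 13.1, 78.8, 74.5 and 61.2 in exposed and 73.7, 284, 326 and 489 in control males (-2.33 ± 0.72), overlapping through 1 control. Cyp4a31 had 42.2, 36.6, 53.6 and 41.4 in exposed and 82.7, 253, 71.5 and 57.1 in control males (-1.14 ± 0.61). The differences were thus of the same sign in these 3 genes, at an adjusted p of 0.622 in each with limma.

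Among exposed males, libraries 1 and 2 were low and libraries 3 and 4 high in most mitochondrial genes. Acaa2 had 9855, 10482, 21575 and 20566 counts in exposed males and 22271, 9182, 24104 and 36343 in control males (-0.49 ± 0.34). Exposed males 1 and 2 held 22.3 and 29.7% mitochondrial reads, and the control male at 9182 counts held 24.8%, while the other males held 9.03 to 18.8%. Etfdh followed the same libraries, with 1485, 1510, 3590 and 3563 in exposed and 3134, 1997, 3222 and 4809 in control males (-0.44 ± 0.29). Acot3 was listed at 0 in exposed male 1 and at 5.71, 36.6 and 467 in the other exposed males, against 142, 20.5, 150 and 475 in control males, and no difference was detectable at this spread (-2.72 ± 1.64).

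The difference of the exposure effect between the sexes at PND42 was tested directly. It passed in 1 member, Etfdh, against 7.91% of all genes, 4.07% lower and 3.84% higher: the effect was lower in females by 1.60 ± 0.42 (limma adjusted p = 0.0278). That call was lost when any of 7 libraries was left out (adjusted p up to 0.0647): control females 3 and the unnumbered one, exposed females 1 and 2, control male 1, and exposed males 3 and 4. Between 0 and 10 members passed as libraries were left out in turn, the 10 without the unnumbered control male of 9.03% mitochondrial reads, 8 without exposed male 1, and 3 each without exposed male 2 or exposed female 4. Over all genes 978 were called lower and 951 higher without that control male, and 648 and 582 without exposed male 1. With every library in, these counts were 533 and 503. In Acads the effect was lower in females by 1.55 ± 0.49 and in Ppara higher by 1.24 ± 0.41, with adjusted p of 0.0581 and 0.0714 in limma.

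Without exposure, control males differed from control females in 3 members, all lower in males, against 2.35% of all genes lower, 4.58% higher and 6.93% in either direction. These controls are the same animals as above. Cyp4a14 had 73.7, 284, 326 and 489 counts in control males and 2474, 3109, 1743 and 6908 in control females (-3.68 ± 0.72, limma adjusted p = 0.0085). Cyp4a10 had 883, 620, 1099 and 1073 in males and 4496, 4669, 2848 and 12020 in females (-2.53 ± 0.57, limma adjusted p = 0.0171). Vnn1 had 50.4, 40.1, 84.7 and 52.9 in males and 226, 127, 471 and 509 in females (-2.37 ± 0.62, limma adjusted p = 0.0321). All 4 Kupffer cell markers also had lower levels in control males, 3 of them past the test, with sums of 2539 to 3535 counts in control males and 4489 to 7630 in control females, without overlap; their part was not tested. The sexes did not overlap in any of the 3 members, nor in Acot3 and Acot4, both lower in males, or in Angptl4, higher in males; groups did not overlap with males below in 5.64% of all genes and with males above in 6.75%. Leaving out libraries gave 1 to 7 calls, 1 without the unnumbered control female and 7 without the unnumbered control male of 24.8% mitochondrial reads. Of these 7, 4 were lower and 3 higher in males. Over all genes 778 were then lower and 1201 higher, against 307 and 600 with every library in. Fewer genes over all were called in each direction without that control female than with every library in. Without the unnumbered control female Cyp4a10 was at an adjusted p of 0.0526, and Vnn1 lost its call in 5 of 8 cases, without control females 4 or the unnumbered one and without control male 1 or either of the other unnumbered males (adjusted p up to 0.0958).

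**Figure D4:**
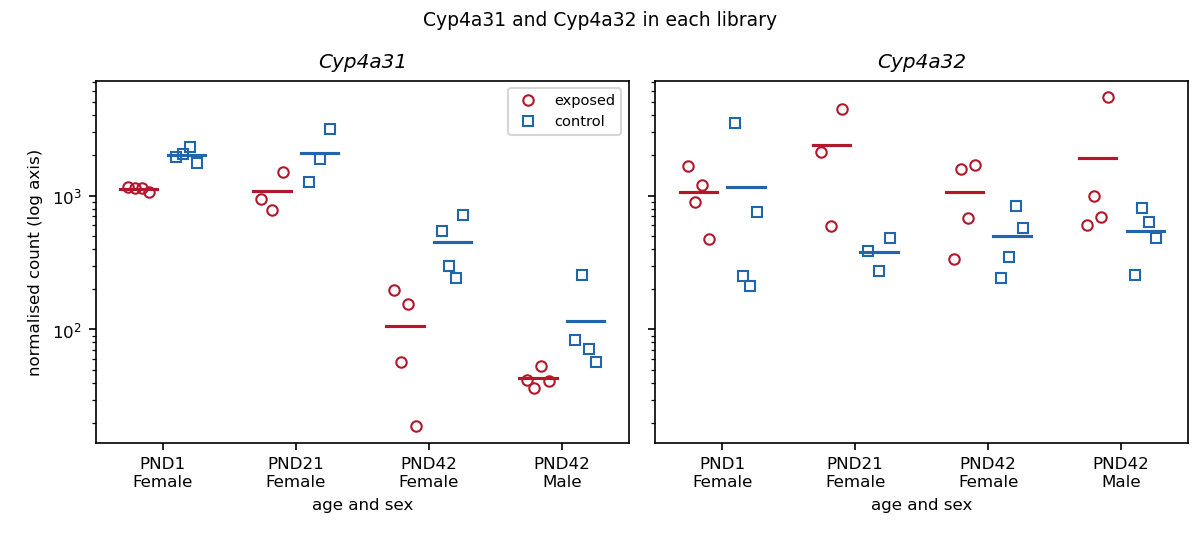
Normalised counts (log axis) of Cyp4a31 (left) and Cyp4a32 (right) in each library by age and sex, exposed (red circles) beside control (blue squares), with lines at the group means. Cyp4a31 has the lower mean in exposed libraries at each age and sex, while Cyp4a32 has the higher mean in exposed libraries in all but PND1 females; PND42 counts were scaled apart from those at PND1 and PND21.

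Across the 4 exposure comparisons 15 members had a negative log2 fold change in all, 17 in 3, 2 in 2 and 2 in none. The share of all genes with each of these patterns was not computed, so how unusual these counts are is not known. The 2 in none were Ppara and Cyp4a32. For Cyp4a32 the values were 0.66 ± 0.93 at PND1, 2.25 ± 0.71 at PND21, 0.97 ± 0.70 in PND42 females and 1.29 ± 0.70 in PND42 males, none of which passed (with the replicate number as a block the PND42 female difference did), and for its near copy Cyp4a31 they were -0.83 ± 0.11, -0.92 ± 0.36, -2.41 ± 0.61 and -1.14 ± 0.61, of which that in PND42 females passed. The median was negative in 3 of the 4 comparisons, so that the same sign in a member is partly shared by the whole list.

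Within each library the ratio of Cyp4a32 to Cyp4a31 counts needs no scaling between libraries. It was 0.760 to 2.92 in exposed and 0.145 to 0.305 in control females at PND21, and 12.9 to 130 in exposed and 3.06 to 8.87 in control males at PND42, without overlap in either. It was 0.447 to 1.43 in exposed and 0.0905 to 1.80 in control females at PND1, and 1.72 to 90.1 in exposed and 0.444 to 3.47 in control females at PND42, overlapping in both. The pair was singled out after its values were seen, so no test is given. At PND42 the ratio was also higher in control males than in control females, 3.06 to 8.87 in males and 0.444 to 3.47 in females, overlapping slightly. CD-1 mice are outbred, and whether gene copies or sequence differ between these animals at this cluster was not tested.

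Between PND1 and PND21 the control females changed in 22 members, 14 lower and 8 higher at PND21, against 28.3% and 27.7% of all 14259 genes and 56% in either direction. Every PND21 control lay below every PND1 control in 13 members, against 27.9% of all genes, and above in 6, against 27.4%. These controls also served in the exposure comparisons at both ages. Of the 11 mitochondrial beta-oxidation genes 4 fell, 1 rose and 6 did not pass, both ketone genes fell, and of the 6 peroxisomal genes 3 rose and 3 did not pass.

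**Figure D5:**
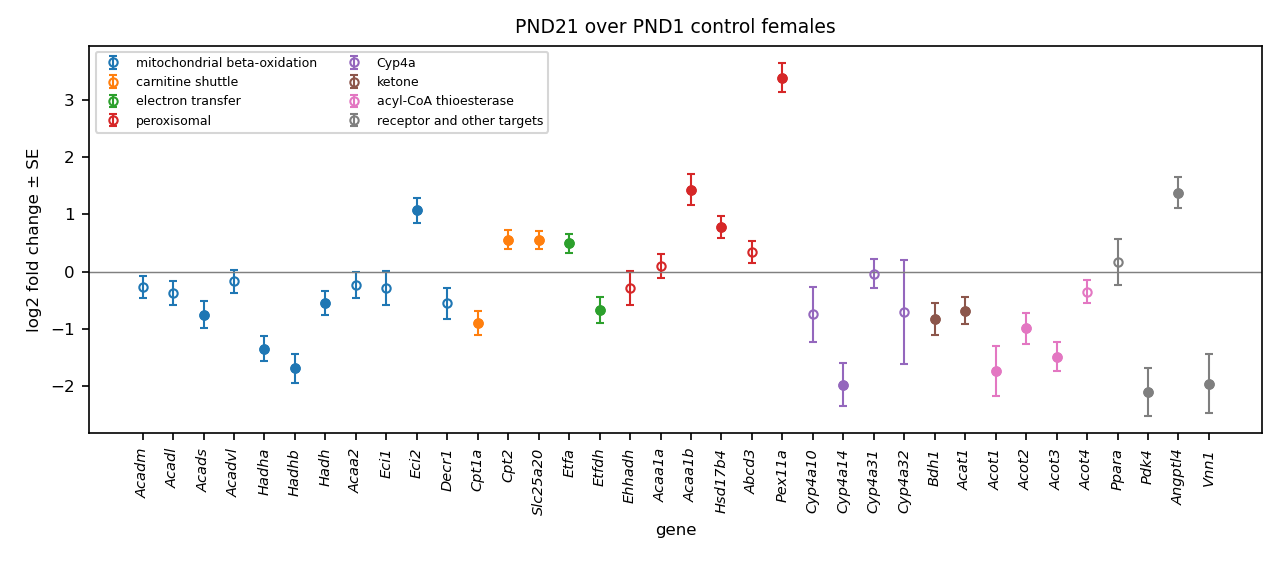
Log2 fold change (± SE) of PND21 over PND1 control females for 36 genes, coloured by role; filled points have an adjusted p under 0.05. Pex11a stands highest at 3.38 and Pdk4 lowest at -2.10.

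Hadha and Hadhb fell together with age. Hadha had 2680, 3548 and 3469 counts in PND21 and 7017, 6191, 8784 and 11555 in PND1 control females (-1.35 ± 0.22), and Hadhb had 1222, 1457 and 1625 in PND21 and 3957, 3745, 4726 and 6301 in PND1 control females (-1.68 ± 0.26), with no overlap in either. Acads and Hadh were also lower (-0.75 ± 0.24 and -0.55 ± 0.21), while Eci2 was higher (1.07 ± 0.21). Cpt1a, the entry step, fell by 0.90 ± 0.22, whereas Cpt2 and Slc25a20 rose by 0.56 ± 0.17 and 0.56 ± 0.16. Etfdh fell (-0.67 ± 0.22) and Etfa rose (0.49 ± 0.16).

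Acat1 and Bdh1 fell by 0.68 ± 0.23 and 0.83 ± 0.27. Of the peroxisomal genes Pex11a had 2477, 2358 and 2920 counts in PND21 and 158.7, 229, 275 and 363 in PND1 control females, a rise of 3.38 ± 0.25 (limma adjusted p = 6.72e-08). Its highest PND1 library was far under its lowest at PND21. Acaa1b rose by 1.43 ± 0.27 and Hsd17b4 by 0.78 ± 0.19, and 0 of the 6 peroxisomal genes fell.

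Pdk4, Cyp4a14 and Vnn1 fell the most of the members. Pdk4 had 86.1, 125 and 177 counts in PND21 and 410, 1029, 414 and 465 in PND1 control females (-2.10 ± 0.41), Cyp4a14 had 4880, 7258 and 6077 in PND21 and 37631, 13806, 18419 and 31758 in PND1 control females (-1.97 ± 0.38), and Vnn1 had 178, 229 and 366 in PND21 and 690, 883, 811 and 1682 in PND1 control females (-1.95 ± 0.52). None of these overlapped between the ages. Acot1, Acot2 and Acot3 fell by 1.74 ± 0.44, 0.99 ± 0.27 and 1.48 ± 0.25, while Angptl4 rose by 1.38 ± 0.27 and Ppara did not pass (0.17 ± 0.40). Of the other pathway genes 12 of 82 fell and 39 rose, where 28.3% of all genes fell and 27.7% rose, the lowest p being of Cyp4f14, another fatty acid hydroxylase (6.75 ± 0.41).

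The makeup of the liver also differed between these ages: 9 of 9 listed erythroid markers and 4 of 4 B cell markers fell at PND21, and 6 of 7 hepatocyte markers rose. The part of this in the members' changes was not tested. Without PND21 control 1, 17 members passed, beside 3747 genes lower and 3601 higher over all, with Acads, Acat1, Bdh1, Etfdh and Hadh lost. Hadh was lost in 5 of 7 cases (limma adjusted p up to 0.18), without PND1 controls 1, 3 or 4 or PND21 controls 1 or 2. Without PND1 control 4 Acat1, Bdh1 and Etfdh were lost too, without PND21 control 2 Bdh1 and Etfa, without PND1 control 2 Etfa, and without PND21 control 3 Etfa and Slc25a20. Scaled by total nuclear reads, which moved the median of all genes to -0.46, 23 members were lower and 4 higher. Over all 14259 genes 6676 were then lower and 1962 higher, against 4041 and 3944 in the main fit. Cpt2, Etfa, Hsd17b4 and Slc25a20 no longer passed.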

How the data were processed

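Liver RNA of 30 mice was sequenced as single-end reads of 125 bases, per the labels. Per the submitters' processing notes, the authors used FastQC, STAR and featureCounts with the mm10 build (tool versions and strand settings: not given in the sources used here). Deposited log2 values of the authors are log2(count divided by a size factor, plus 1): 100% of values came back within 0.1 of a whole read. The deposited baseMean signal is the mean over 14 libraries at PND1 and PND21, scaled together, and over 16 at PND42, scaled apart. For PND1 and PND21 the authors deposited their own log2 fold changes, test scores and p values as well, used only where credited to them. The tables list genes of a mean of at least 10.5 and 12.1 counts, and depth of 22.0 to 40.1 M reads limits the precision of low genes.

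Because the deposited values are log2, no count model was used. Limma 3.58.1 in R 4.3.3 (trend, robust, two-sided, Benjamini-Hochberg over all genes tested, threshold 0.05) was fitted to genes with at least 10 normalised counts in as many libraries as the smaller group, with pseudocount 1. PND42 comparisons shared a fit of 4 groups, as did the age comparisons. The fit was tested on simulated data. Alternatives were other scalings, filters, pseudocount 10, voom on recovered reads, a replicate block and leaving out each library. Replicate pairs shared at most 0.516% of genes at equal reads. The names of 4 control columns at PND42, 1 of females and 3 of males, match their group but no single sample, and these are called unnumbered; that of the female repeats the tag of PND21 control 1. Positions, exons and coding sequences are from GENCODE vM21 (14238 of 14259 identifiers matched), promoters from RefSeq. All 36 members could be named, with up to 6 other pathway genes of lowest p per comparison, and Ppargc1b and Ppard were added after their values were seen. The members and lists were chosen with earlier results of these data known.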

Additional observations from a re-analysis of the deposited data

Results flagged for a closer look

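Over the 216 sets of 4 libraries examined, 12 held a library far from its group, where chance gives about 10.8. Among exposed PND42 females these were Acat1 in replicate 4, high at 6334 normalised counts, Acot3 and Acot4 in replicate 3, low at 61.1 and 417, and Pex11a in replicate 2, high at 2273. Among control PND42 females Hadha was high at 8863 and Slc25a20 low at 2666, both in replicate 3. Among PND42 males Cyp4a14 was low at 13.1 in exposed replicate 1, and Pex11a was low at 2208 in an unnumbered control. At PND1 Angptl4 was high at 1836 in exposed replicate 3 and Eci1 low at 1481 in exposed replicate 2, while Acot3 was high at 1091 in control replicate 1 and Pdk4 high at 1029 in control replicate 2.

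The exposure effect at PND42 differed between females and males, in limma's interaction test, for the member Etfdh (-1.60, adjusted p = 0.0278) and for the pathway genes Hsdl2 (-1.27, adjusted p = 0.023) and Acsl5 (-1.32, adjusted p = 0.0344), each lower in females. Etfdh was the only member to pass, 1 of 36, against 7.91% of all genes. Its call was lost in 7 of the 16 fits with a library left out.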

How the results depend on the processing

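Under other scalings, filters, pseudocount and model, 0 members passed at PND1, at PND21, in PND42 males and in the interaction of exposure with age. In PND42 females 19 to 25 passed. With each library left out there, 18 to 21 passed, the 18 beside 2570 genes lower and 2184 higher over all. With the percent of mitochondrial reads as a covariate 0 passed there, and Eci1 turned to a log2 fold change of 0.081; the median was then -0.35 at PND1, -0.03 at PND21 and -0.22 in PND42 males. In the interaction of exposure with sex 2 members passed with a trimmed mean of M values, 4 with total nuclear reads, and 0 to 10 with each library left out. Over all genes 577 were called lower and 464 higher with the trimmed mean, and 337 and 469 with total nuclear reads. Between control males and females 8 passed with total nuclear reads, beside 643 genes lower and 275 higher over all. With each library left out 1 to 7 passed, the 7 beside 778 genes lower and 1201 higher over all. Between the ages 22 to 27 passed, the 27 beside 6676 genes lower and 1962 higher over all. With each library left out 17 to 21 passed, the 17 beside 3747 and 3601. The causes were not tested.

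Scaling by total nuclear reads moved the median of all genes to 0.09 at PND1, 0.27 at PND21, 0.39 in PND42 females and 0.15 in PND42 males, and the members' medians to -0.33, 0.34, -0.59 and -0.27. In PND42 females it called 18 members lower and 1 higher, and 1470 genes lower and 4251 higher over all, against 2801 and 2468. Cpt1a and Eci1 no longer passed. Members that did not pass changed sign under some alternative in 7 cases at PND1, 23 at PND21, 12 in PND42 females and 4 in PND42 males.

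With the replicate number as a block, where only the numbers shared by both groups entered, 0 members passed at PND1 and 0 at PND21. In PND42 females 25 passed, beside 2637 genes lower and 2350 higher of 13046 over all. These 25 were the 21 of the fit without the block plus Cyp4a10, Cyp4a32, Slc25a20 and Vnn1. Correlations of deviations between libraries of the same number were -0.08 to 0.13 at PND1 and -0.04 to 0.23 at PND21. In PND42 females they were -0.08 to 0.07. With so few libraries these values do not settle whether the numbers pair the samples. No paired analysis was possible in PND42 males because the groups share fewer than 2 numbers.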
